A study of Mus musculus with 3 samples.

Results

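This account describes 589 H3K27ac peaks that each reach across several H3K4me3 peaks in a mouse precursor B-cell leukaemia model. They were chosen by position in the authors' peak lists: every H3K27ac peak that shared at least 1 bp with 2 or more separate H3K4me3 peaks was taken, and these are called bridging peaks here. They were 589 of 29468 H3K27ac peaks, or 2.0% (exact 95% binomial interval 1.84 to 2.17%). Together they met 1277 of 18142 H3K4me3 peaks (7.04%, interval 6.67 to 7.42%) and held 7.21% of the summed H3K27ac length.

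The cells carry Bcr-Abl, the fusion kinase that drives this leukaemia, and were cultured with no stimulation or treatment. Chromatin was immunoprecipitated in 3 samples, 1 against acetylated lysine 27 of histone H3 (H3K27ac), 1 against trimethylated lysine 4 of the same histone (H3K4me3) and 1 with an IgG control, and all 3 share the cell type, the driver and the culture conditions. The mouse strain and whether the cells are 1 clone are not stated in these sources. The IgG sample was not analysed here on its own. Each mark rests on 1 library, so values carry no replicate error and no samples were tested against each other. Sequencing depth is unknown. Intervals are 95% intervals, exact binomial for shares and from order statistics for medians; they cover counting error alone and take each peak as independent.

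H3K27ac is written by the acetyltransferases p300 and CBP and is found at active promoters and enhancers. H3K4me3 is written by SET1 and MLL complexes and is concentrated on the nucleosomes around transcription start sites. An acetylated stretch that covers several H3K4me3 peaks may therefore hold 1 start site whose methylated flanks were listed apart, or several promoters close together. No gene annotation of the files' build, mm9, was used here, so bridging peaks are named by position, counted from 1.

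Most bridging peaks joined a pair. There were 506 with 2 H3K4me3 peaks (85.9%, interval 82.8 to 88.6%), 68 with 3, 12 with 4 and 3 with 5. Median H3K27ac width was 6215 bp (interval 5780 to 6483 bp) for those with 2, 11535 bp (interval 10904 to 12647 bp) for those with 3 and 17968 bp (interval 13113 to 20239 bp) for the 15 with 4 or more. A longer peak has more room for H3K4me3 peaks, so this order is tied to how the members were chosen. The share with at least 1 H3K4me3 peak at or above a score of 3100 was 53.8, 55.9 and 60.0% in these classes, and the intervals overlapped.

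The authors' score ranks peaks within a list, and many strong peaks are tied at 3100, called the ceiling here. At or above it were 517 bridging peaks (87.8%, interval 84.9 to 90.3%), where the share in all H3K27ac peaks was 24.1%. In H3K27ac peaks that met exactly 1 H3K4me3 peak it was 40.1% (interval 39.3 to 40.9%). Of the bridging peaks, 495 (84.0%, interval 80.8 to 86.9%) were at least 4000 bp wide, against 13.4% of H3K27ac peaks with exactly 1 H3K4me3 peak and 10.9% of all H3K27ac peaks. Width favours a second overlap, and these contrasts are given as a description only.

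From 4000 bp upward nearly all peaks of both kinds were at the ceiling, which leaves little room for a difference. Classes of width, and of gap further on, leave out their upper limit. At 4000 to 6000 bp, 91.7% of bridging peaks (interval 86.3 to 95.5%) and 90.8% of those with exactly 1 H3K4me3 peak (interval 89.1 to 92.3%) were at the ceiling. At 6000 to 10000 bp the shares were 98.9 and 98.3%. Below 4000 bp, where 94 bridging peaks lay, the class of 2000 to 4000 bp had 46.2% of bridging peaks (interval 34.8 to 57.8%) at the ceiling, against 58.3% of those with exactly 1 H3K4me3 peak (interval 57.1 to 59.5%). The bridging share was the lower one there, and the intervals met only at their ends.

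Bridging became more frequent with the width of the H3K27ac peak. The bridging share was 0.0959% among 16688 peaks under 2000 bp, 0.814% among 9578 peaks of 2000 to 4000 bp and 7.74% among 2028 peaks of 4000 to 6000 bp. It was 21.7% (interval 19.0 to 24.6%) among 867 peaks of 6000 to 10000 bp and 48.9% (interval 43.1 to 54.6%) among the 307 peaks of 10000 bp and more. In the widest class, 150 peaks were bridging, 108 met exactly 1 H3K4me3 peak and 49 met none.

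**Figure D1:**
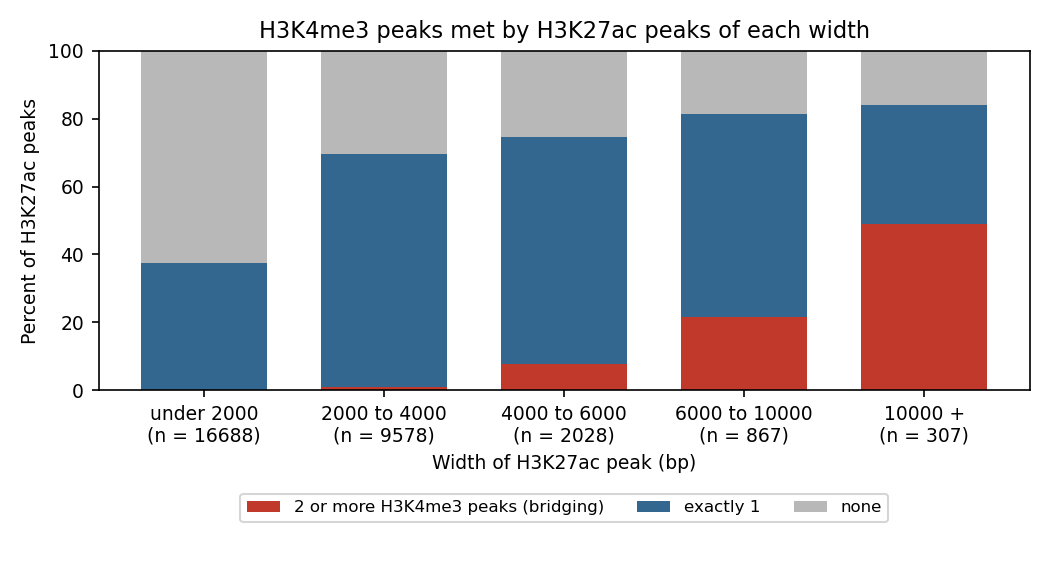
Percent of H3K27ac peaks (y axis) in each class of H3K27ac width in bp (x axis) that met 2 or more H3K4me3 peaks, exactly 1 or none, stacked to the whole class, with the number of peaks under each bar. The bridging part is 7.74% at 4000 to 6000 bp and 48.9% at 10000 bp and more.

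The gaps between neighbouring H3K4me3 peaks inside a bridging peak ran over a wide range. There were 690 gaps, with a median of 697 bp (interval 606 to 844 bp), quartiles of 151 and 1817 bp and extremes of 1 and 22913 bp. Gaps under 200 bp, about the length of DNA on a nucleosome with its linker, numbered 194 (28.1%, interval 24.8 to 31.6%), and 80 of them were under 50 bp. A further 87 gaps measured 200 to 500 bp, 122 measured 500 to 1000 bp, 134 measured 1000 to 2000 bp, 121 measured 2000 to 5000 bp and 32 measured 5000 bp and more. The group therefore holds both closely split and widely separated H3K4me3 peaks: 154 bridging peaks had every gap under 200 bp, and 257 had a gap of 1000 bp or more. In 21 of the 83 bridging peaks with 3 or more H3K4me3 peaks, both kinds of gap occurred together.

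Closely split and widely separated members differed in layout. Where the largest gap was under 200 bp, median H3K27ac width was 4462 bp (interval 4146 to 4877 bp), H3K4me3 covered a median of 75.5% of it (interval 70.6 to 81.7%), and the span from the first to the last H3K4me3 base was 3424 bp. Where the largest gap was 5000 bp and more, the width was 17212 bp (interval 14885 to 19078 bp), the covered share 25.8% (interval 20.1 to 30.8%) and the span 12073 bp. A large gap needs a wide peak, so width and gap are not free of each other. The H3K4me3 peaks had similar widths in these 2 classes: the median width of the narrowest one was 862 bp (interval 765 to 946 bp) in the closely split members and 1060 bp (interval 802 to 1234 bp) in the most widely separated ones, and that of the widest one was 2280 and 2526 bp. Their scores were not clearly apart. The median lowest H3K4me3 score of a member was 144 (interval 109 to 197) and 194 (interval 124 to 245). No H3K4me3 peak was at the ceiling in 40.9% (interval 33.1 to 49.1%) and 56.25% (interval 37.7 to 73.6%) of members. Every H3K4me3 peak was at the ceiling in 13.0% of the closely split members (interval 8.12 to 19.3%). It was so in 0 of the 32 most widely separated ones (interval up to 10.9%), and these intervals overlapped. In the classes between, from the shortest gap up, the shares were 8.22, 9.52, 9.91 and 2.63% (interval of the last 0.546 to 7.498%). The number of H3K4me3 peaks per member was not matched. The median highest H3K4me3 score of a member was 3100 under 200 bp, 2182 at 2000 to 5000 bp and 2095 at 5000 bp and more. The intervals of the last 2 reached 3100.

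H3K27ac at the score ceiling was also unevenly spread over the gap classes. It was found in 118 of 154 members with a largest gap under 200 bp (76.6%, interval 69.1 to 83.1%) and in all 32 with a gap of 5000 bp and more (interval 89.1 to 100%). The 72 bridging peaks below the ceiling were mostly narrower, with a median of 2982 bp (interval 2734 to 3290 bp) and a median largest gap of 209 bp (interval 129 to 367 bp). At or above the ceiling these medians were 7379 and 957 bp.

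**Figure D2:**
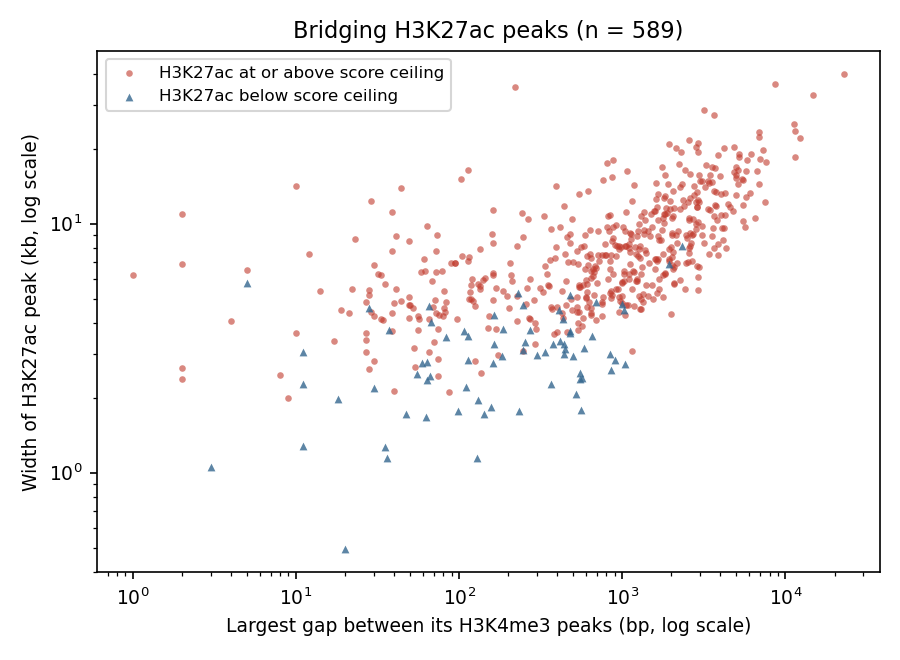
Each point is 1 of the 589 bridging H3K27ac peaks, placed by the largest gap between its H3K4me3 peaks in bp (x axis, log scale) and its own width in kb (y axis, log scale), with a red circle for a score at or above 3100 and a blue triangle for a lower score. The 72 lower-scoring peaks have a median width of 2982 bp and reach 8090 bp.

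Seen from the H3K4me3 list, H3K27ac was continuous across most short gaps and across few long ones. Of the 299 pairs of neighbouring H3K4me3 peaks less than 200 bp apart, 64.9% (interval 59.2 to 70.3%) were bridged. The share was 59.2% (interval 50.8 to 67.2%) at 200 to 500 bp and 54.5% (interval 47.7 to 61.1%) at 500 to 1000 bp. It was 29.7% (interval 25.5 to 34.2%) at 1000 to 2000 bp, 10.1% (interval 8.47 to 11.97%) at 2000 to 5000 bp and 0.203% at 5000 bp and more. Intervals of the 3 classes under 1000 bp overlapped, and those of the 3 classes above did not overlap each other or any shorter class.

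Where a short gap was not bridged, H3K27ac was either interrupted or missing from 1 or both H3K4me3 peaks. Under 200 bp, 38 of the 299 pairs lay under different H3K27ac peaks, 44 had H3K27ac on 1 member of the pair and 23 had none. The interruption of H3K27ac between those 38 pairs had a median of 117 bp (interval 96 to 209 bp). Pairs under different H3K27ac peaks rose to 55.9% (interval 51.2 to 60.5%) at 1000 to 2000 bp and to 73.7% (interval 71.1 to 76.1%) at 2000 to 5000 bp. Both lists come from the same cells and the same peak caller.

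**Figure D3:**
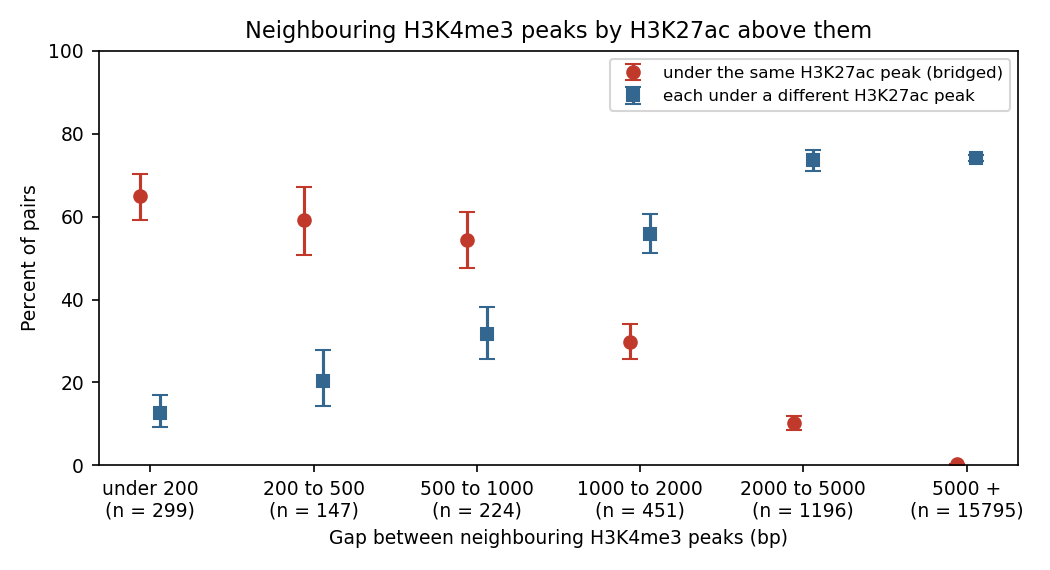
Percent of neighbouring H3K4me3 pairs (y axis) in each class of gap in bp (x axis, number of pairs below) that lie under the same H3K27ac peak (red circles) or each under a different one (blue squares), with exact 95% binomial intervals. The bridged share is 64.9% under 200 bp, 29.7% at 1000 to 2000 bp and 0.203% at 5000 bp and more.

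The H3K4me3 peaks under a bridging peak were often of unequal strength. In 269 bridging peaks (45.7%) some H3K4me3 peaks were at or above the ceiling and others below it, in 50 (8.49%, interval 6.37 to 11.0%) every one was at or above it, and in 270 (45.8%, interval 41.8 to 49.96%) none was. Mixed neighbours were not particular to bridging peaks. At gaps of 1000 to 2000 bp, at least 1 of the pair was at the ceiling in 45.5% of bridged pairs and both in 10.4%. In pairs under different H3K27ac peaks these shares were 81.3 and 29.8%. The lowest-scoring H3K4me3 peak of a member had a median score of 143 (interval 124 to 161), and in 214 members it scored under 100. The widest H3K4me3 peak of a member had a median of 2441 bp (interval 2303 to 2589 bp) and the narrowest 931 bp (interval 877 to 980 bp), and within members the median ratio was 2.04 (interval 1.90 to 2.23). The wider peak is always the numerator of this ratio, which was under 1.5 in 181 members and above 5 in 75. Members in which every H3K4me3 peak was at or above the ceiling were thus the smallest of the 3 classes. Sorting a pair by width makes the 2 medians unequal in any set of pairs. At gaps of 1000 to 2000 bp, the wider H3K4me3 peak had a median of 2606 bp in bridged pairs (interval 2308 to 2868 bp). In pairs under different H3K27ac peaks it was 2540 bp (interval 2387 to 2652 bp). The narrower one had medians of 997 bp (interval 876 to 1163 bp) and 1357 bp (interval 1198 to 1476 bp). At this spacing the narrower peak was thus smaller in bridged pairs, and the wider one was similar.

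As a group these H3K4me3 peaks scored lower than others under H3K27ac. Of the 1277, 383 (29.99%, interval 27.5 to 32.6%) were at or above the ceiling, against 60.8% (interval 60.0 to 61.6%) of the 14340 met only by H3K27ac peaks with exactly 1 H3K4me3 peak and 50.3% of all H3K4me3 peaks. Their median width was 1514 bp (interval 1413 to 1585 bp), against 2039 bp (interval 2018 to 2059 bp). The lower scores were present at equal width. At 2000 to 3000 bp, 55.0% (interval 48.2 to 61.6%) were at the ceiling under bridging peaks and 90.4% (interval 89.5 to 91.2%) under the others. Every H3K4me3 peak of a member is counted here. For the highest-scoring H3K4me3 peak of each H3K27ac peak the contrast depended on H3K27ac width. At 2000 to 4000 bp that peak was at the ceiling in 53.8% of bridging peaks and 71.9% of those with exactly 1. The shares were 47.8 and 62.2% at 4000 to 6000 bp, and 57.4 and 54.0% at 6000 to 10000 bp. They were 57.3 and 59.3% at 10000 bp and more. Intervals overlapped under 2000 bp and from 6000 bp upward, but not between.

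Among wide H3K27ac peaks the difference at equal H3K4me3 width was smaller and had no constant direction. When both sides were limited to H3K27ac peaks of 4000 bp or more, H3K4me3 peaks of 2000 to 3000 bp were at the ceiling in 50.3% of 199 cases under bridging peaks (interval 43.1 to 57.4%) and in 44.9% of 274 cases under peaks with exactly 1 (interval 38.9 to 50.99%). At 1000 to 2000 bp the shares were 6.25% (interval 3.96 to 9.31%) and 2.86% (interval 1.38 to 5.19%). At 3000 to 4000 bp they were 83.8% (interval 75.8 to 89.9%) and 91.1% (interval 87.7 to 93.8%). All 3 pairs of intervals overlapped, which does not show that the groups are equal. At 2000 to 3000 bp the share under peaks with exactly 1 was 44.9% here and 90.4% at any H3K27ac width. For bridging peaks such a contrast has little room, since 199 of their 222 H3K4me3 peaks of that width lay under wide H3K27ac peaks. Whether H3K27ac width accounts for the scores was not tested. Among H3K27ac peaks of 4000 bp or more, the width of single H3K4me3 peaks differed. Medians were 1597 bp (interval 1518 to 1656 bp) under bridging peaks and 3395 bp (interval 3254 to 3489 bp) under the others. Several must share 1 H3K27ac peak in a member, so this contrast is tied to the rule. The median length covered by H3K4me3 per H3K27ac peak was 3015 bp in bridging peaks and 3337 bp in the others at 4000 to 6000 bp. It was 4294 and 3088 bp at 6000 to 10000 bp, and 5281 and 4145 bp at 10000 bp and more.

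**Figure D4:**
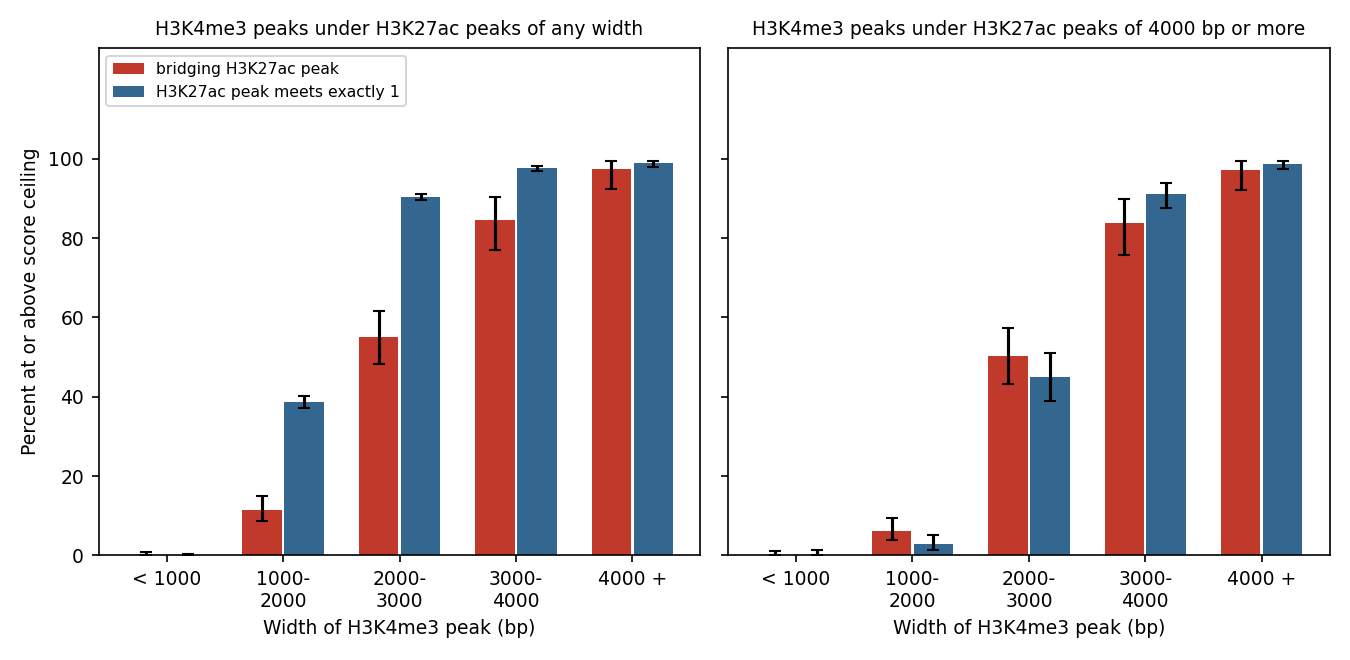
Percent of H3K4me3 peaks at or above the score ceiling (y axis) in classes of H3K4me3 width in bp (x axis), under bridging H3K27ac peaks (red) and under H3K27ac peaks that meet exactly 1 H3K4me3 peak (blue), with exact 95% binomial intervals, for H3K27ac peaks of any width (left) and of 4000 bp or more (right). At 2000 to 3000 bp the bars stand at 55.0 and 90.4% on the left and at 50.3 and 44.9% on the right.

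Bridged neighbours were also weaker than neighbours at the same spacing under separate H3K27ac peaks. For gaps of 1000 to 2000 bp, the lower score of the pair had a median of 169 (interval 131 to 239) in 134 bridged pairs and 778 (interval 511 to 1363) in 252 pairs under different H3K27ac peaks. At least 1 of the pair was at the ceiling in 45.5% (interval 36.9 to 54.3%) and 81.3% (interval 76.0 to 86.0%) of them. For gaps of 2000 to 5000 bp those shares were 43.0% (interval 34.01 to 52.3%) and 74.1% (interval 71.1 to 77.0%). Under 200 bp they were 52.6 and 63.2% and the intervals overlapped, but the lower score of the pair had a median of 141 (interval 112 to 182) in the bridged pairs and 694 (interval 344 to 1703) in the 38 pairs under different H3K27ac peaks. H3K27ac width was not matched in these pairs.

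Inside a bridging peak, H3K4me3 covered a median of 56.6% of the H3K27ac width (interval 54.0 to 59.9%, quartiles 36.3 and 76.3%). It covered more than 90% in 46 members and less than 25% in 57. In H3K27ac peaks with exactly 1 H3K4me3 peak the median was 92.2%. The contrast was not the same at every width. Under 2000 bp the medians were 76.9% (interval 54.7 to 96.0%) in bridging peaks and 98.9% (interval 98.5 to 99.4%) in those with exactly 1, and at 2000 to 4000 bp they were 76.4% (interval 62.2 to 84.5%) and 91.2% (interval 90.8 to 91.7%). At 4000 to 6000 bp they were 63.1% (interval 57.7 to 69.3%) and 69.6% (interval 66.5 to 72.6%), with overlapping intervals. At 6000 to 10000 bp bridging peaks had the larger covered share, 57.4% (interval 50.1 to 63.0%) against 43.7% (interval 39.6 to 50.04%). At 10000 bp and more the medians were 38.8% (interval 32.6 to 44.7%) and 34.6% (interval 27.6 to 39.5%).

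In summed length, acetylation without H3K4me3 lay more outside the H3K4me3 peaks than between them. A member with 2 H3K4me3 peaks has 1 gap but up to 2 flanks, and there were 690 gaps and 952 flanks. The totals therefore also follow the number of stretches. Gaps made up 39.3% of the length of bridging peaks that had no H3K4me3, and flanks beyond the outer H3K4me3 peaks made up the rest. The gaps outweighed the flanks in 215 members (36.5%, interval 32.6 to 40.5%). H3K27ac reached beyond H3K4me3 on both sides in 395 members (67.1%), on 1 side in 162 and on neither in 32. Where a flank was present its median length was 982 bp (interval 878 to 1084 bp).

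In the 506 members with 2 H3K4me3 peaks, H3K27ac extended further past the narrower one. The flank beside the wider peak had a median of 429 bp (interval 311 to 518 bp) and that beside the narrower peak 768 bp (interval 690 to 875 bp), counted as negative where H3K4me3 ran past the H3K27ac end. Within members the difference, wider minus narrower side, had a median of -415 bp (interval -548 to -328 bp), and the flank beside the wider peak was the longer in 170 of 506 (33.6%, interval 29.5 to 37.9%). H3K27ac ended inside the wider H3K4me3 peak in 29.8% (interval 25.9 to 34.04%) and inside the narrower one in 11.7% (interval 8.996 to 14.8%). Width and flank share an edge here: an H3K4me3 peak that reaches further out is wider and leaves a shorter flank. These contrasts are therefore tied to how they were measured and are given as a description only.

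A middle H3K4me3 peak was the widest in 27 of the 83 members with 3 or more. Median width was 1220 bp for middle H3K4me3 peaks (interval 1002 to 1584 bp) and 1609 bp for end peaks (interval 1365 to 1834 bp), and the intervals overlapped.

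The 3 bridging peaks with 5 H3K4me3 peaks showed different patterns. The widest of them covered 28.6 kb of chromosome 13 (23829181 to 23857734), and 4 of its H3K4me3 peaks, 2608 to 5447 bp wide, stood at 3100, with the fifth at 1014. Its gaps measured 1954, 2881, 3167 and 1652 bp, so this was a row of strong, widely spaced H3K4me3 peaks. On chromosome 9 (107223587 to 107243825) the H3K4me3 scores in genome order were 3100, 51.6, 757, 3100 and 2995, with gaps of 525, 2822, 834 and 580 bp. On chromosome 11 (79332074 to 79344975) only the middle peak, 3735 bp wide, reached the ceiling. The first 3 of its peaks were separated by gaps of 25 and 100 bp, and gaps of 1817 and 678 bp followed.

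The 12 bridging peaks with 4 H3K4me3 peaks all scored 3100 for H3K27ac and were 10.1 to 27.3 kb wide. On chromosome 7 (26461517 to 26475947) H3K4me3 peaks of 3178 and 4396 bp at the ceiling stood at the ends, with peaks of 644 and 744 bp scoring 106 and 55.7 between them. On chromosome 15 (97645106 to 97663073) H3K4me3 covered 78.8% of the H3K27ac peak, and a gap of 9 bp separated a peak of 1357 bp from one of 6645 bp. On chromosome 14 (41759449 to 41781686) a 6143 bp peak at the ceiling stood at an end, and a gap of 6926 bp set off the 1806 bp peak at the other.

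A single strong H3K4me3 peak among minor ones was found on chromosome 10 at 43458133 to 43473559, where it was 2897 bp wide, and on chromosome 5 at 147486724 to 147505506, where it was 6113 bp wide. The second member on chromosome 10 (59616748 to 59635825) had its peaks in 2 close pairs, with gaps of 106 and 119 bp inside the pairs and 5216 bp between them. No H3K4me3 peak reached the ceiling in the other 6. These lay on chromosome 3 (53772583 to 53799884), chromosome 11 (60919501 to 60938079, 98606371 to 98616750 and 119018526 to 119028577), chromosome 14 (51587689 to 51604478) and the X chromosome (45776357 to 45789469). On chromosome 3 the 4 H3K4me3 peaks, 731 to 1045 bp wide and scoring 58.4 to 648, covered only 12.8% of a 27.3 kb H3K27ac peak.

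**Figure D5:**
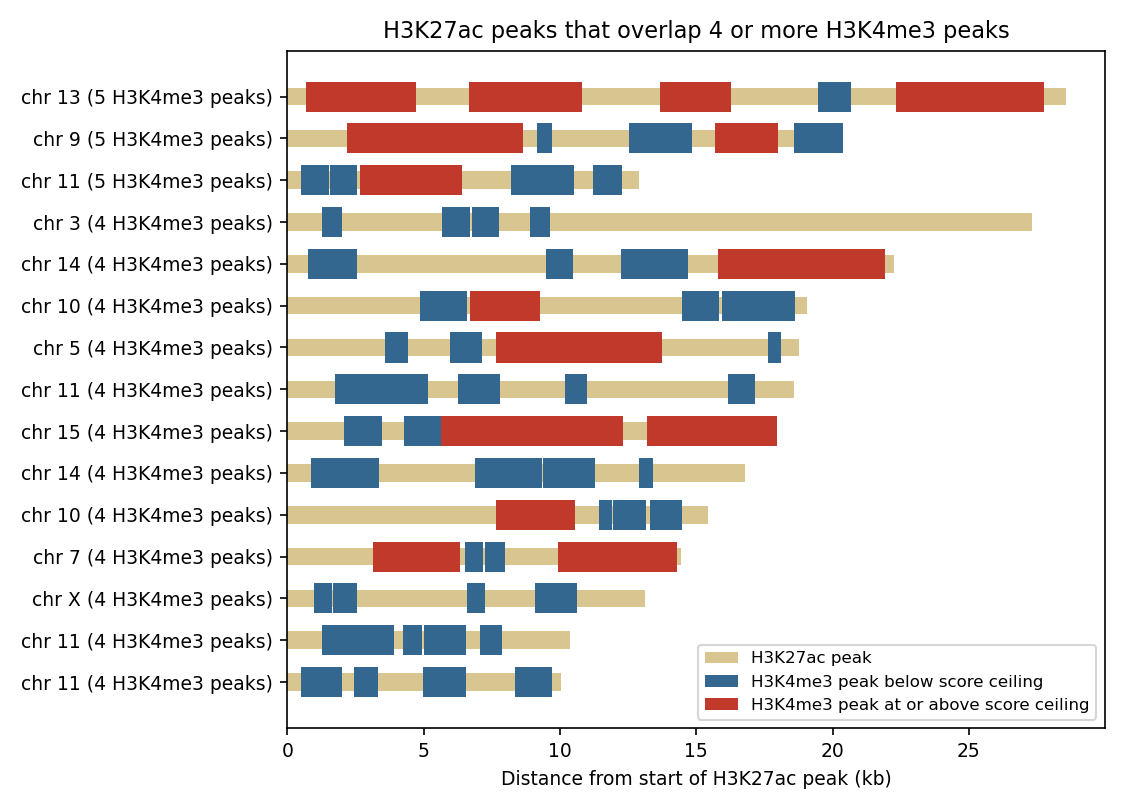
The 15 bridging H3K27ac peaks with 4 or more H3K4me3 peaks, each a tan bar drawn to scale from its own start (x axis, kb), with its H3K4me3 peaks as red boxes where they score at or above 3100 and blue boxes where they score lower. The top bar, 28.6 kb on chromosome 13, carries 4 red boxes, and 6 bars carry none.

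The 10 widest bridging peaks differed in how much of their length H3K4me3 covered, with 7.35% at the lowest and 61.0% at the highest. The widest, 39.7 kb on chromosome 4 (44888183 to 44927847), held H3K4me3 peaks of 2386 and 2097 bp that scored 533 and 198, lay 22.9 kb apart and covered 11.3% of it. The 36.5 kb peak on chromosome 15 (63466548 to 63503008) had 3 H3K4me3 peaks scoring 182, 352 and 54.8, with 8.52% covered and flanks of 12224 and 12397 bp. The 32.9 kb peak on chromosome 7 (139899978 to 139932833) had peaks of 1672 and 742 bp, scoring 815 and 94.4, set 14.8 kb apart. These 3 were acetylated over long distances with no H3K4me3 peak at the ceiling.

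On chromosome 16 (95621577 to 95656958) a 35.4 kb peak held both of its H3K4me3 peaks near its centre, 220 bp apart, with flanks of 15224 and 16079 bp. Its membership rests on that short gap. In the 10 widest, strong H3K4me3 peaks with a distant companion occurred on chromosome 17 (46164219 to 46189357), where a 6602 bp peak lay 11.3 kb from one of 2410 bp scoring 837, and on chromosome 5 (137152373 to 137175828), where a 6514 bp peak lay 11.5 kb from one of 1171 bp scoring 142. On chromosome 4 (46584325 to 46607602) the H3K4me3 peaks were nearly equal in width, 3077 and 3126 bp, and lay 6849 bp apart. The members on chromosomes 13, 14 and 3 that complete the 10 were described with the peaks above. H3K4me3 covered 61.0% of the one on chromosome 13, 51.3% of the one on chromosome 14 and 12.8% of the one on chromosome 3.

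The 10 largest gaps added 5 further members. On chromosome 9 (107196561 to 107218691) H3K4me3 peaks of 5348 and 1234 bp lay 12.2 kb apart, and the next bridging peak along the chromosome was the one with 5 H3K4me3 peaks at 107223587. On chromosome 4 (57064982 to 57083395) peaks of 1563 and 1480 bp, scoring 601 and 381, lay 11.4 kb apart. The others were on chromosome 3 (82535653 to 82553276, gap 7557 bp), chromosome 2 (11574402 to 11586620, gap 7483 bp) and chromosome 6 (68188067 to 68207773, gap 7238 bp), and in each the wider H3K4me3 peak, 2885 to 3808 bp, was the second in genome order.

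Some members qualified by a few bases. The shortest overlap with an H3K4me3 peak was at most 10 bp in 6 members, at most 50 bp in 10 and at most 100 bp in 15. Just inside the rule was a peak on the X chromosome (98726313 to 98727983) that met its second H3K4me3 peak by 1 bp, followed by peaks on chromosome 8 (87498338 to 87499622, 5 bp), chromosome 5 (140893594 to 140896958, 6 bp), chromosome 2 (126532019 to 126534834, 10 bp) and chromosome 11 (69232619 to 69233113, 10 bp). The last, 495 bp wide, was the narrowest bridging peak. Just outside were H3K27ac peaks with a second H3K4me3 peak 2 bp away on chromosome 11 (60032937 to 60035007), 6 bp away on chromosome 9 (21807247 to 21808743), 18 bp away on chromosome 7 (28145941 to 28146584), and 20 bp away on chromosome 16 (91645728 to 91649864) and the X chromosome (10292100 to 10292886). In all, 45 of the 14820 H3K27ac peaks with exactly 1 H3K4me3 peak had a second one within 100 bp, and 444 within 1000 bp.

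Bridging peaks mostly had other H3K27ac peaks near them. Another lay within 12.5 kb of 474 bridging peaks (80.5%, interval 77.0 to 83.6%), against 57.0% of H3K27ac peaks with exactly 1 H3K4me3 peak and 66.1% of all H3K27ac peaks. Within a width class from 4000 bp upward the shares were close: 72.6% (interval 64.9 to 79.4%) and 74.1% (interval 71.7 to 76.4%) at 4000 to 6000 bp, 89.4% (interval 84.0 to 93.4%) and 85.9% (interval 82.6 to 88.8%) at 6000 to 10000 bp, and 90% and 88.0% at 10000 bp and more. At 2000 to 4000 bp they were 59.0 and 56.3%. Under 2000 bp they were 68.8% of only 16 bridging peaks (interval 41.3 to 89.0%) and 51.1% (interval 49.8 to 52.3%). The median distance from a bridging peak to the next H3K27ac peak was 2462 bp (interval 2082 to 3028 bp). Among H3K27ac peaks that met H3K4me3, the share with a neighbour was thus highest in the widest classes, bridging or not. Nearby acetylation was not confined to wide peaks, since 74.4% of the 10416 peaks under 2000 bp with no H3K4me3 peak also had a neighbour.

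A small number of bridging peaks were linked to each other or to other H3K27ac peaks. In 39 (6.62%, interval 4.75 to 8.94%) an H3K4me3 peak also met another H3K27ac peak, and 2 H3K4me3 peaks were met by 2 bridging peaks each. Counted by H3K4me3 peak, these links were not particular to bridging peaks. Of their 1277 H3K4me3 peaks, 37 (2.90%, interval 2.05 to 3.97%) also met another H3K27ac peak. Among all 18142 H3K4me3 peaks, 466 met 2 or more H3K27ac peaks. There were 15 cases of 2 bridging peaks in a row with no other H3K27ac peak between them, 9 of them within 12.5 kb. How many such cases the order of peaks alone would give was not tested. One run of 3 lay on chromosome 13 (21840528 to 21848626, 21869357 to 21880990 and 21900079 to 21906399), spaced 20730 and 19088 bp apart, with 2, 3 and 2 H3K4me3 peaks. The closest were on chromosome 9 (21090781 to 21095879 and 21095883 to 21097026), 3 bp apart, chromosome 8 (87498338 to 87499622 and 87499629 to 87510816), 6 bp apart, and chromosome 5 (140981461 to 140988735 and 140988757 to 140995457), 21 bp apart.

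Bridging peaks were spread over every autosome and the X chromosome. Their share of H3K27ac peaks ran between 1.13% on chromosome 12 (interval 0.644 to 1.82%) and 2.88% on chromosome 7 (interval 2.14 to 3.78%), and these 2 intervals did not overlap. These are the lowest and highest shares, picked after the values were seen. The intervals make no allowance for that choice, so they do not show an uneven spread. Among H3K27ac peaks that met any H3K4me3 peak the shares were 2.66% (interval 1.53 to 4.29%) on chromosome 12 and 4.78% (interval 3.57 to 6.25%) on chromosome 7, and those intervals did. The largest numbers were 56 on chromosome 11, 53 on chromosome 2 and 50 on chromosome 7. None lay among the 3 H3K27ac peaks of the Y chromosome or the 67 on unplaced contigs, numbers that allow shares of up to 70.8 and 5.36% by the exact interval.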

How the data were processed

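ChIP-seq peak lists of H3K27ac and H3K4me3 were analysed, 1 library each. Per the submitters' processing notes, the authors called peaks with MACS on mm9; versions, aligner, filters and read numbers are not given in the sources used. The deposited score of each peak is the authors' value, is not defined by a header, and was used only within a list; the lowest score is 50.01 in both lists and ties at 3100 hide differences among strong peaks. Peaks overlapped when they shared 1 bp or more, and bedtools 2.31.1 gave the same counts for every H3K27ac peak. A gap is the number of bases between neighbouring H3K4me3 peaks. A caller that divides 1 enriched stretch, or joins 2, changes who is a member, so joined lists were tried, among 7 alternatives. On simulated data, 500 of 500 planted second peaks were recovered with 0 wrong gaps. All planted peaks lay wholly inside H3K27ac peaks, so this checks the counting alone. It does not cover overlaps at an H3K27ac edge or divided and joined calls. Named members, by a rule, were the 10 widest, all with 4 or more H3K4me3 peaks, the 10 with the largest gaps and the 5 nearest the rule on either side; adjoining pairs and runs were named after their values were seen. The members, rule and classes were chosen with earlier results of these data known. Genes, start sites and sequences were not assigned, since the reference tables at hand follow GRCm38.p6. Python 3.11.15, NumPy 2.4.6, pandas 2.3.3, SciPy 1.17.1 and matplotlib 3.10.9 were used.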

Additional observations from a re-analysis of the deposited data

How the results depend on the processing

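Of 35 alternative values (5 results under 7 settings), 18 fell inside the interval of the main value (for the number of members, within 1.5 times) and 17 fell outside. The 589 members became 257 with H3K4me3 peaks within 1000 bp joined and 361 with those within 500 bp joined. Under those settings the share of H3K4me3 peaks held was 3.11 and 4.35%, the median width 9945 and 8343 bp, the median gap 2054 and 1588 bp and the median covered share 43.0 and 47.0%, as follows from removing short gaps. With H3K27ac peaks within 1000 bp joined the share was 10.8%, the width 7407 bp and the gap 1071 bp, for 879 members. Without scores under 100 the share was 5.47%, the width 7478 bp, the gap 872 bp and the covered share 61.1%, for 408 members; the cause was not tested. Requiring 50% of the H3K4me3 peak, lists of the same length and autosomes only gave 557, 583 and 577 members and moved no value outside its interval. The share of H3K4me3 peaks at the ceiling ran between 27.6 and 35.9% under bridging peaks and between 60.8 and 68.5% under the others over all 7 settings and the deposited lists. No paired analysis was possible because each mark has 1 library. Unknown depth limits what an unbridged gap or a missing peak shows.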
